A study of Homo sapiens with 10 samples.

Results

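The genes described here are the nuclear genes for the subunits of respiratory complexes II, III, IV and V. The members were chosen by gene symbol from a written list of 39 subunits, and 36 of them, of 17687 genes in all, have a value. Of these, 35 were found under the written symbol and NDUFA4 was found through its gene ID under the newer symbol COXFA4. SDHB, UQCRFS1 and ATP5F1E are not analysed here, since no probe set with a single gene symbol carries theirs. Of the subunits written for each complex, complex II is thus covered by 3 of 4, complex III by 8 of 9, complex IV by 11 of 11 and complex V by 14 of 15. ATP5MJ and ATP5MK were placed in a wider list of tissue isoforms and accessory subunits and are not counted here. None of the 6 mitochondrially encoded subunits of complexes III, IV and V has a value.

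The study hybridised RNA of 2 prostate cancer cell lines, CWR22Rv1 and PC3, to 10 Affymetrix Clariom S arrays, and the values are on a log2 scale. In a time course, CWR22Rv1 cells were taken as 0 h of starvation (1 array) or after 24 h (1 array) and 48 h (1 array) in medium without arginine, and the labels give the 0 h culture as 24 h in control medium, so that starved and control cells at 48 h also differ in time in medium. In a separate experiment CWR22Rv1 cells spent 48 h in control medium (+R, 1 array), in arginine-free medium (-R, 1 array) or in arginine-free medium with 5 mM dimethyl α-ketoglutarate (DMKG, 1 array), a membrane-permeable analog of α-ketoglutarate. The dose of 5 mM is that of the labels, while the methods of the study state 5 μM. PC3 cells spent 48 h in control medium (2 arrays) or in arginine-free medium (2 arrays). Control medium held arginine at 200 mg/L, and all cultures had dialyzed serum. Each line is an established cell line, so the arrays of a line describe that line alone. The labels do not say whether arrays of a group came from separate cultures, and p-values therefore measure only the spread between these samples.

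The respiratory chain of the inner mitochondrial membrane passes electrons from NADH and succinate to oxygen. Complex II, succinate dehydrogenase, oxidizes succinate within the tricarboxylic acid cycle and hands the electrons to ubiquinone. Complex III moves them from ubiquinol to cytochrome c and complex IV from cytochrome c to oxygen, and both complexes pump protons. Complex V, the ATP synthase, lets the protons flow back through a ring of c subunits, whose rotation turns a central stalk inside a catalytic head that makes ATP. Most subunits are encoded in the nucleus and imported, while a few core subunits of complexes III, IV and V are encoded in mitochondrial DNA. Complex II is the exception, since all its subunits are nuclear-encoded.

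Of the luminal prostate markers, KLK2, FOXA1, TMPRSS2, FOLH1 and KRT8 lay higher on every CWR22Rv1 array than on any PC3 array, and KLK3, HOXB13 and KRT18 overlapped. FOLH1, a surface antigen of luminal prostate cells, had log2 levels of 10.68 to 13.33 in CWR22Rv1 and 3.33 to 3.80 in PC3 cells. Vimentin (VIM), a mesenchymal filament protein, had 5.94 to 6.39 and 15.04 to 15.23. Of the other markers listed for PC3 cells, CD44, AXL and CAV1 also lay higher on every PC3 array than on any CWR22Rv1 array. EPCAM of that list went the other way, with 12.42 to 13.53 in CWR22Rv1 and 9.92 to 10.32 in PC3 cells. KLK3, the gene of prostate-specific antigen, had 6.19 to 7.83 and 6.90 to 7.26, and these levels come from different sets of arrays and were not tested. Of 8 luminal markers with a value, 2 fell and 1 rose in CWR22Rv1 cells (3.74% and 3.2% of all genes) and 2 fell in PC3 cells (10% of all genes) at 48 h, and their part in the results was not tested. Among markers of immune cells, CD68, a lysosomal protein of macrophages, read 7.79 to 10.63 in PC3 cells and fell by 2.32 with starvation there, while PTPRC, CD3E and LYZ stayed at or below 5.47 on all arrays. All 4 endothelial markers stayed at or below 6.45 and the fibroblast markers COL1A1 and DCN at or below 5.46, while LUM read up to 6.58 in CWR22Rv1 cells and COL1A2 read 6.67 to 8.36 in CWR22Rv1 and 8.30 to 8.81 in PC3 cells. Of 6 genes of the response to amino acid shortage, 3 rose in CWR22Rv1 cells (3.2% of all genes) and all 6 rose in PC3 cells (9.59%), ASNS by 1.87 and 2.998. Their median difference at 48 h was 0.77 in the time course, where DDIT3 was at -0.58, and 3.03 in the DMKG experiment. CHAC1 of this list read 12.48 at 0 h and 6.56 with +R, so the 2 controls stood apart in it, and the part of this in the results was not tested. Background control probe sets had array medians of 3.30 to 4.04, and 95th percentiles up to 8.66. The lowest value of any complex II to V subunit, 8.01 for ATP5F1D on PC3 starved array 2, lay below the 95th percentile of that array (8.66), and all other member values lay above that of their own array. Arrays of the same experiment or line correlated at 0.977 to 0.997 across genes. In the DMKG experiment, +R and -R values were identical for 21.6% of all genes and -R values with and without DMKG for 26.3%, among them 1 and 2 subunits, while such ties held for 0.0452% of genes between 0 h and 48 h of the time course.

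After 48 h without arginine, 8 of the 36 subunits fell in CWR22Rv1 cells and none rose, against 3.74% of all genes that fell and 3.2% that rose. These were UQCR10 of complex III, COX5A and COX8A of complex IV, and ATP5F1A, ATP5F1D, ATP5PD, ATP5MC1 and ATP5MC3 of complex V. The median log2 difference was -0.33 for the 36 subunits and 0.02 for all genes. Of the 36 values 34 were negative, against 8355 of the 17687 genes. Taken apart by experiment, 25 of 36 were negative in the time course (47.2% of all genes) and 34 in the DMKG experiment (39.2% of all genes). A log2 difference of -1 is a 2-fold fall. The effect at 48 h is the mean of the starved minus control differences in both CWR22Rv1 experiments. It comes, like its standard error (SE), from 1 linear model over all 10 arrays in limma. The 24 h and DMKG arrays have their own effects there and add nothing to the estimate of spread. That spread comes from a prior over all genes, from the PC3 replicates and, to a lesser part, from both CWR22Rv1 experiments at 48 h. A gene is called where the p adjusted over all genes by the method of Benjamini and Hochberg is below 0.05. Mean signals of the subunits over the arrays were 10.86 to 16.93, while array medians over all genes were 6.11 to 6.87. Shares of all genes, here and below, are therefore not shares of genes of like signal, which are not given. A lower signal can come from less RNA per cell or from fewer cells that carry it, and these cannot be told apart in bulk RNA.

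At an unadjusted p under 0.05, 16 subunits were lower and none was higher, against 10.4% and 10.1% of all genes. The 8 calls rest on few arrays. None of them passed when the +R or the -R array of the DMKG experiment was left out, and only ATP5MC3 did when the 0 h or 48 h array of the time course was. Without any 1 of the PC3 arrays 4 passed, namely UQCR10, COX5A, ATP5F1D and ATP5MC3, and with CWR22Rv1 arrays alone none of the 36 subunits and none of the 17687 genes passed, while 14 subunits had an unadjusted p under 0.05. Without a term for the experiment, and with the methods' t-test after adjustment, 0 passed, and with the trend and robust variant of limma 16 did. Except for the adjusted calls with CWR22Rv1 arrays alone, shares of all genes under these other settings are not given. Their counts therefore describe only how the calls vary with the setting.

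**Figure D1:**
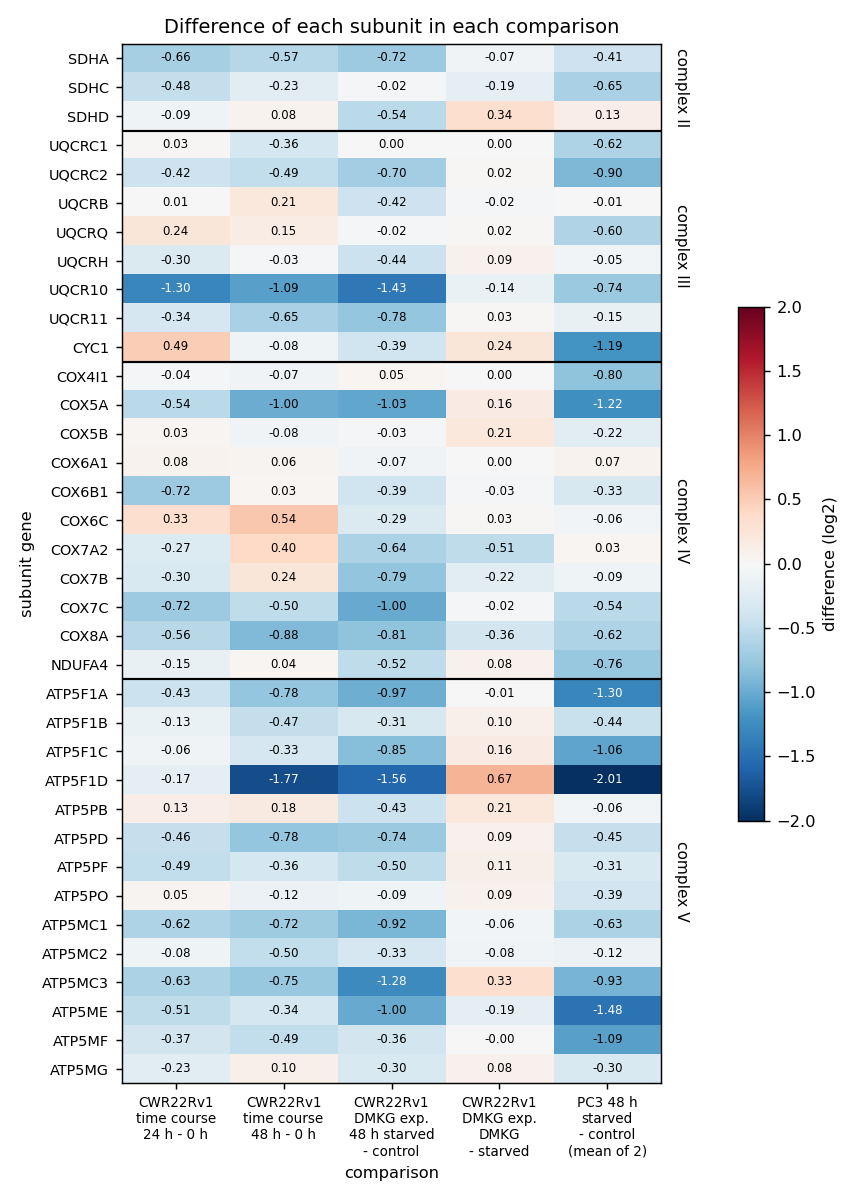
Log2 difference of each of the 36 subunits (rows, grouped by complex) in 5 comparisons (columns); each cell prints its value, blue is lower and red is higher. The columns of the time course share the 0 h array and those of the DMKG experiment share the -R array, and ATP5F1D has the lowest value of the 48 h columns, from -1.56 to -2.01.

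In CWR22Rv1 cells complex II had 0 calls among 3 subunits, complex III had 1 among 8, complex IV had 2 among 11 and complex V had 5 among 14, with medians of -0.23, -0.24, -0.18 and -0.51. No difference between complexes was tested. Taken apart by experiment, complexes II, III, IV and V had medians of -0.23, -0.22, 0.03 and -0.48 in the time course and of -0.54, -0.43, -0.52 and -0.62 in the DMKG experiment. Complex V had the lowest median of the 4 complexes in each experiment, and the median of complex IV differed most between them. Past a 2-fold fall were 2 of the 36 subunits in the time course (4.15% of all genes) and 6 in the DMKG experiment (3.61% of all genes), and past a 2-fold rise was none in either (2.96% and 4.05% of all genes).

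**Figure D2:**
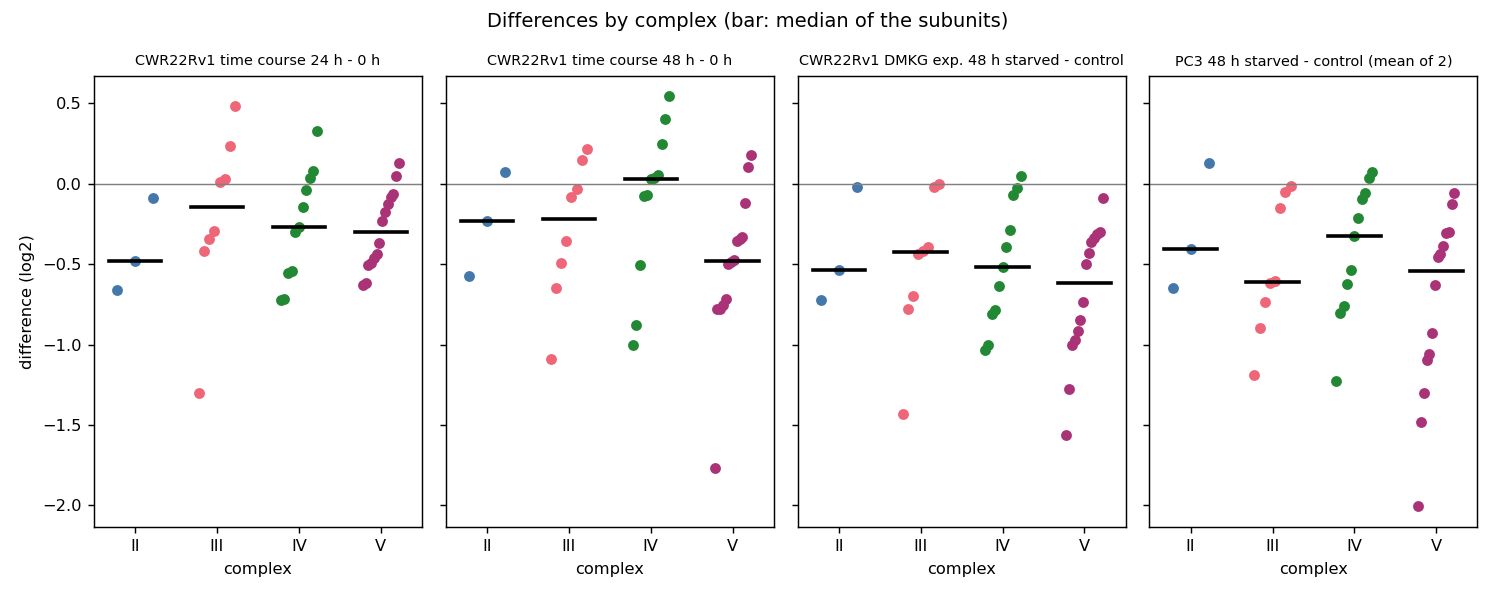
Log2 difference from control (vertical axis) of each subunit, by complex (horizontal axis), in 4 comparisons of starved with control cells; each point is 1 subunit and each bar is the median of a complex. The median of complex IV is 0.03 at 48 h of the time course and -0.52 in the DMKG experiment, while that of complex V is -0.48 and -0.62, and the 24 h and 48 h panels of the time course share their control.

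Complex II had no call in CWR22Rv1 cells. SDHA, the flavoprotein that binds succinate, had log2 signals of 12.13 at 0 h, 11.47 at 24 h and 11.55 at 48 h of the time course, and 11.60 with +R, 10.88 with -R and 10.81 with -R and DMKG. It was lower on all starved arrays than on the control of its experiment, with a 48 h difference of -0.65 (SE 0.18, adjusted p = 0.0794 from limma). SDHC and SDHD anchor the enzyme in the membrane and form its ubiquinone site. SDHC had 12.33, 11.85 and 12.10 in the time course and 13.02, 13.01 and 12.82 in the DMKG experiment. SDHD had 11.01, 10.92 and 11.08, and 11.93, 11.39 and 11.73. The membrane anchors did not follow SDHA in both experiments: the 48 h differences of SDHC were -0.23 and -0.02 and those of SDHD 0.08 and -0.54.

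In complex III the only call was UQCR10, a small membrane-spanning subunit next to cytochrome c1. Its signal was 11.91 at 0 h, 10.62 at 24 h and 10.82 at 48 h, and 11.90 with +R, 10.47 with -R and 10.33 with DMKG. In each experiment both starved arrays lay over 1 log2 unit below the control. The gene fell by 1.26 (SE 0.22, adjusted p = 0.0172 from limma). UQCRC1 and UQCRC2 are the large core proteins that face the matrix. UQCRC1 read 13.83, 13.86 and 13.47 in the time course and 12.88 on all 3 arrays of the DMKG experiment, a set of exact ties. UQCRC2 read 14.31, 13.89 and 13.82, and 15.75, 15.05 and 15.07. Its 48 h difference of -0.59 (SE 0.17, adjusted p = 0.0853 from limma) missed the threshold although all 4 starved arrays were below their control.

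CYC1, cytochrome c1, which passes electrons to the mobile cytochrome c, read 13.39, 13.87 and 13.31 in the time course and 13.38, 12.99 and 13.23 in the DMKG experiment. It was higher than control at 24 h, near control at 48 h and lower in the other experiment. Of the small subunits, UQCR11 had 48 h differences of -0.65 and -0.78 and came closest to a call after UQCR10 (adjusted p = 0.0777 from limma). UQCRH, the acidic hinge protein that holds cytochrome c1, had -0.03 and -0.44. UQCRB and UQCRQ, partners of the mitochondrially encoded cytochrome b, had differences of opposite sign in the 2 experiments, 0.21 and -0.42 for UQCRB and 0.15 and -0.02 for UQCRQ.

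Complex IV held genes that were lower in both experiments and genes whose differences had opposite signs. COX5A, a matrix-side subunit that joins early in assembly, read 14.02 at 0 h, 13.47 at 24 h and 13.02 at 48 h, and 13.64 with +R, 12.61 with -R and 12.77 with DMKG. It fell by 1.02 (SE 0.19, adjusted p = 0.0218 from limma), and the 24 h array lay between 0 h and 48 h. COX8A, a small membrane-spanning subunit, read 16.30, 15.75 and 15.43, and 15.74, 14.93 and 14.56. It fell by 0.84 (SE 0.19, adjusted p = 0.0393 from limma), and the array with DMKG was the lowest of its experiment. COX7C, another single-span subunit, had differences of -0.50 and -1.005 and was just above the threshold (adjusted p = 0.0566 from limma).

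COX4I1, COX5A's partner in assembly, showed no such shift in CWR22Rv1 cells. It read 11.44, 11.40 and 11.37 in the time course and 10.56, 10.60 and 10.60 in the DMKG experiment. NDUFA4, once counted with complex I and now placed in complex IV, read 15.66, 15.51 and 15.70, and 15.49, 14.97 and 15.05. The largest gaps between both CWR22Rv1 experiments at 48 h belonged to 3 single-span subunits of this complex. COX7A2 read 12.56, 12.29 and 12.96 in the time course and 12.59, 11.95 and 11.44 in the DMKG experiment. COX7B read 13.14, 12.84 and 13.38, and 12.82, 12.04 and 11.81. COX6C read 13.03, 13.35 and 13.57, and 12.39, 12.10 and 12.13. All 3 were above control at 48 h of the time course and below control in the DMKG experiment, and the gap between these differences was -1.04, -1.03 and -0.83.

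The other 3 subunits of complex IV had no call either. COX5B, the zinc-binding matrix-side subunit, had differences of -0.08 and -0.03, and COX6A1, a regulatory subunit, had 0.06 and -0.07. COX6B1, which sits on the side of the intermembrane space and contacts cytochrome c, had 0.03 in the time course, where its 24 h value was -0.72 from control, and -0.39 in the DMKG experiment.

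Complex V had 14 negative values among 14 at 48 h, against 8355 of all 17687 genes. By experiment it had 12 in the time course (47.2% of all genes) and 14 in the DMKG experiment (39.2% of all genes). In its catalytic head and central stalk 2 of 4 subunits fell. ATP5F1D, the delta subunit of the central stalk, read 12.39 at 0 h, 12.22 at 24 h and 10.62 at 48 h, and 13.32 with +R, 11.76 with -R and 12.43 with DMKG. Its 24 h array was near the control and its 48 h arrays were the lowest of their experiments, and it fell by 1.67 (SE 0.30, adjusted p = 0.0197 from limma), the largest fall of the 36. ATP5F1A, the alpha subunit of the head, read 14.05, 13.62 and 13.27, and 12.82, 11.85 and 11.84. It fell by 0.87 (SE 0.20, adjusted p = 0.041 from limma) and had nearly the same value with DMKG as without. The beta subunit ATP5F1B, which holds the catalytic sites, had differences of -0.47 and -0.31, and the gamma subunit ATP5F1C, the shaft of the central stalk, had -0.33 and -0.85, and neither passed.

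The c ring is built from a protein that ATP5MC1, ATP5MC2 and ATP5MC3 encode with the same mature sequence behind different import signals, and 2 of these 3 genes fell. ATP5MC1 read 16.20, 15.58 and 15.48 in the time course and 16.47, 15.56 and 15.50 in the DMKG experiment. It fell by 0.82 (SE 0.18, adjusted p = 0.0331 from limma), and in each experiment both starved arrays lay below the control. ATP5MC3 read 10.60, 9.96 and 9.84, and 10.52, 9.24 and 9.57. It fell by 1.01 (SE 0.19, adjusted p = 0.022 from limma). ATP5MC2 had differences of -0.50 and -0.33 and did not pass (adjusted p = 0.259 from limma).

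The peripheral stalk holds the head still against the turning ring, and 1 of its 4 subunits fell. ATP5PD, subunit d, read 12.14, 11.68 and 11.37, and 12.94, 12.21 and 12.30. It fell by 0.76 (SE 0.17, adjusted p = 0.0385 from limma), with nearly equal differences of -0.78 and -0.74 in the experiments. ATP5PF, coupling factor 6, had -0.36 and -0.50. ATP5PB, subunit b, and ATP5PO, the subunit that confers oligomycin sensitivity, had 0.18 and -0.43, and -0.12 and -0.09.

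None of the 3 small membrane subunits, which lie beside the ring and help the enzyme to form dimers, passed in CWR22Rv1 cells. ATP5ME, subunit e, read 11.57, 11.06 and 11.22, and 11.58, 10.57 and 10.39. ATP5MF, subunit f, read 16.38, 16.01 and 15.89, and 17.50, 17.13 and 17.13. Starved arrays were below their control for both genes in each experiment, with 48 h effects of -0.67 and -0.43 (adjusted p = 0.105 and 0.259 from limma). ATP5MG, subunit g, had 0.10 and -0.30.

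**Figure D3:**
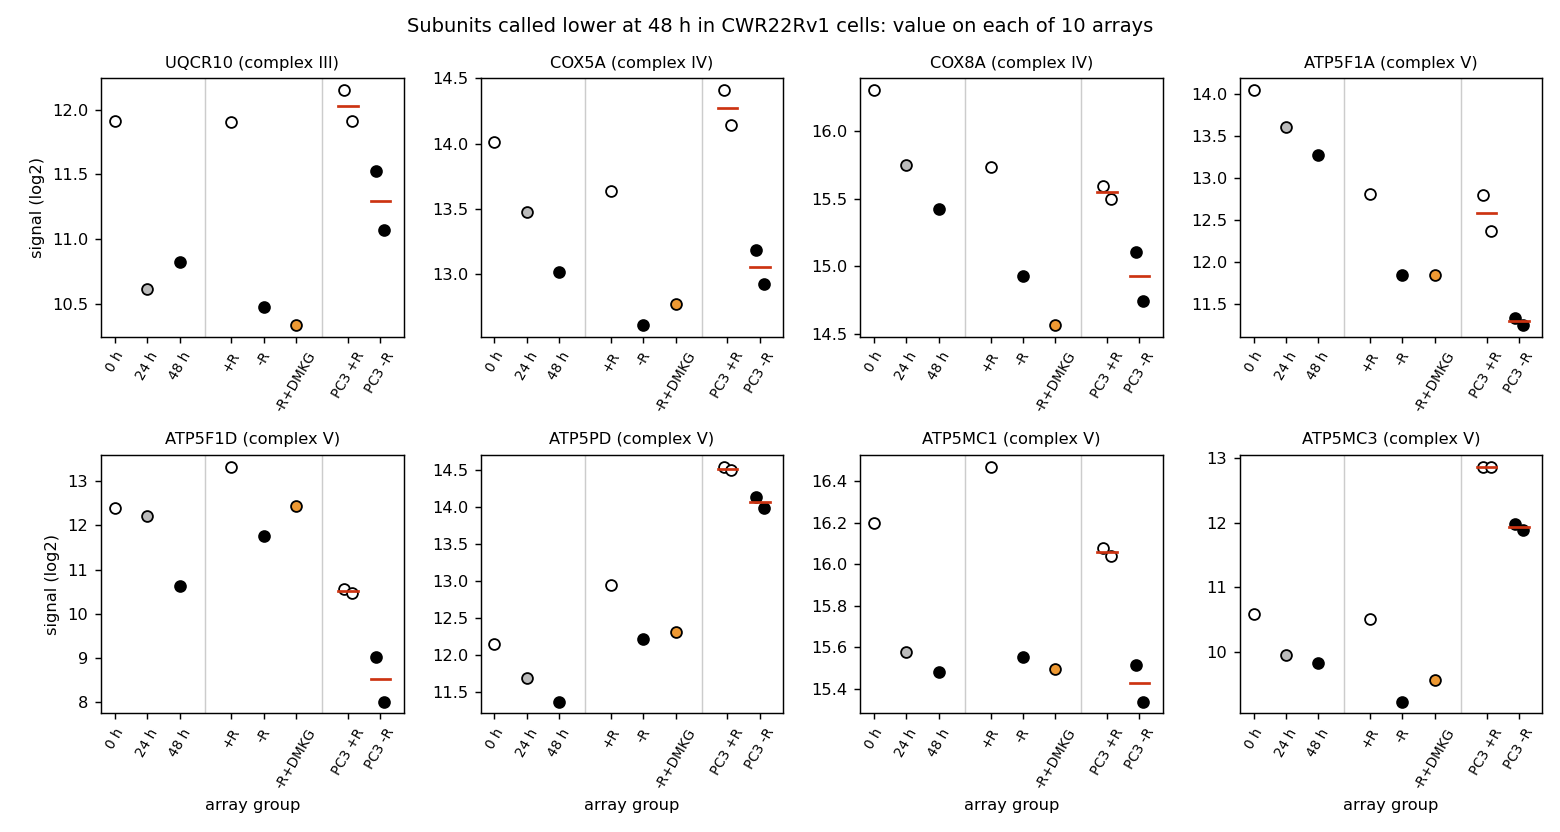
Log2 signal (vertical axis, own range in each panel) of the 8 subunits called lower in CWR22Rv1 cells on each of 10 arrays (horizontal axis): the time course at 0 h (white), 24 h (grey) and 48 h (black), the DMKG experiment with +R (white), -R (black) and -R with DMKG (orange), and PC3 cells with +R (white) and -R (black). Red bars are means of 2 PC3 arrays, grey lines divide sets of arrays whose levels were not compared, and in each panel the black points of a set lie below its white points.

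Promoter sequence from RefSeq (GRCh38.p14) was set beside these values, because most of the 36 genes had negative values at 48 h in both lines. A window of 300 bases, 250 before and 50 after the annotated start, was found for 28 of the 36 genes and for 14250 of all genes, and short letter strings of known regulators were searched in it on both strands. GCGCATG, the core letters of nuclear respiratory factor 1 (NRF1), stood in 7 of 28 windows (25.0%) against 6.82% of all genes. CCGGAAG, letters of the ETS factor GABPA, stood in 14 (50%) against 16.6%, and AAGGTCA, the letters of estrogen-related receptors (ERR), in 5 (17.9%) against 4.25%. ATGGCGG of YY1 stood in 5 (17.9%) against 9.29%, GGGCGG of SP1 in 15 (53.6%) against 65.4%, CCAAT in 11 (39.3%) against 42.3% and TATAAA in 3 (10.7%) against 12.3%. TGACGTC of CREB stood in 2 (7.14%) against 5.45% and TGATGCA, letters of the ATF4 composite site, in 0 against 2.86%. By complex, complex II had the NRF1 letters in 1 of 2 windows, complex III in 0 of 6, complex IV in 2 of 10 and complex V in 4 of 10. A match is a description of letters and not a site.

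A window was found for 6 of the 8 genes called in CWR22Rv1 cells. None of these 6 holds the NRF1 letters, 3 hold those of GABPA, 4 those of SP1, 4 CCAAT and 2 those of ERR. Of 10 windows of genes called in PC3 cells, 2 hold the NRF1 letters, 3 those of GABPA, 5 those of SP1, 3 CCAAT and 1 those of ERR. The stretch of 150 bases before the start is printed for the 5 of them with 1 annotated start, and for SDHD, which had no call, to show the NRF1 letters. Each reads 5′ to 3′ along the gene, with any of the searched letters on either strand in capitals.
UQCR10 (chr22:29767219-29767368, plus strand): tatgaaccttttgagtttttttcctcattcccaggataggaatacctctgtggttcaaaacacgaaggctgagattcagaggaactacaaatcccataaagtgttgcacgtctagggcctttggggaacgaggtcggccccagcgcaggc
COX5A (chr15:74938074-74938223, minus strand): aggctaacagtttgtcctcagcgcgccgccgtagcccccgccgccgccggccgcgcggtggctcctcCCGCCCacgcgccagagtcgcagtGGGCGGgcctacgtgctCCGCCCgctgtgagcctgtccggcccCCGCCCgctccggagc
COX8A (chr11:63974470-63974619, plus strand): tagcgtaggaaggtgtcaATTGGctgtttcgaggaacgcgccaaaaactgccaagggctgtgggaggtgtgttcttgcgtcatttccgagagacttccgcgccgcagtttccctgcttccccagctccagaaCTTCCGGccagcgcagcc
ATP5PD (chr17:75046970-75047119, minus strand): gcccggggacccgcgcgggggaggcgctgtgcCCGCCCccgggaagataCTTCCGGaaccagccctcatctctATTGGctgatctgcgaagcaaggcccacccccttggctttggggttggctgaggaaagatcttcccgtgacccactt
ATP5MC1 (chr17:48892637-48892786, plus strand): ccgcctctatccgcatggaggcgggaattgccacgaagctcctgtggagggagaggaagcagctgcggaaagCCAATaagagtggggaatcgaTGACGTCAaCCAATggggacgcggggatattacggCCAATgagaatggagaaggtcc
SDHD (chr11:112086723-112086872, plus strand): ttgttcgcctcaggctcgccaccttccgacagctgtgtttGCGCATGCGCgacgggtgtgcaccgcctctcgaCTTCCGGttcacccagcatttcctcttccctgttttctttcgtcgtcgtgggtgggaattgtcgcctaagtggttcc
The stretch of UQCR10 holds none of the searched strings. That of COX5A holds the SP1 letters 4 times and no other string, and that of ATP5MC1 holds CCAAT 3 times and a CREB string that reads the same on both strands and so matches at 2 overlapping positions. COX8A and ATP5PD hold the GABPA letters and CCAAT, and ATP5PD also those of SP1. SDHD holds the NRF1 letters at 2 overlapping positions and the GABPA letters, read as CTTCCGG.

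At 24 h of the time course 0 of 36 subunits passed the test, as did 0 of the 17687 genes (0% lower, 0% higher). At an unadjusted p under 0.05, 8 subunits were lower and none higher, against 5.96% and 6.3% of all genes. These were SDHA, UQCR10, COX6B1, COX7C, ATP5PF, ATP5MC1, ATP5MC3 and ATP5ME. The fitted effect at 24 h is also shifted by how far both CWR22Rv1 experiments disagree at 48 h, so the plain differences from 0 h are given. Their median was -0.28 for the 36 subunits and 0.01 for all genes, with -0.48, -0.14, -0.27 and -0.30 for complexes II, III, IV and V. UQCR10 was the only subunit past a 2-fold fall (1 of 36, against 1.54% of all genes), with a difference of -1.30 at 24 h and -1.09 at 48 h. ATP5F1D was at -0.17 at 24 h and -1.77 at 48 h, and the differences share the 0 h array. With the trend and robust variant of limma UQCR10 passed at 24 h.

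In PC3 cells 15 of the 36 subunits fell after 48 h without arginine and none rose, against 10% of all genes that fell and 9.59% that rose. They were SDHC of complex II, UQCRC1, UQCRC2, UQCR10 and CYC1 of complex III, COX4I1, COX5A and NDUFA4 of complex IV, and ATP5F1A, ATP5F1C, ATP5F1D, ATP5MC1, ATP5MC3, ATP5ME and ATP5MF of complex V. The median log2 difference was -0.50 for the 36 subunits and 0.02 for all genes, and -0.41, -0.61, -0.33 and -0.54 for complexes II, III, IV and V. The share called was 1 of 3, 4 of 8, 3 of 11 and 7 of 14. Both starved arrays lay below both controls for 25 of the 36 subunits (28.6% of all genes) and above them for SDHD alone (31.3% of all genes), and the groups overlapped for the other 10.

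Without PC3 control 1 or without PC3 starved 2 the count was 4, namely COX5A, ATP5F1A, ATP5F1D and ATP5ME, and without control 2 or starved 1 it was 8. With each array centred on its median 11 passed, with quantile normalization over all arrays 18, and with the methods' t-test 0 after adjustment and 17 before it. Shares of all genes under these settings are not given, so their counts describe only how the calls vary with the setting.

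SDHC was the only called subunit of complex II. It read 12.64 and 12.42 on the PC3 control arrays and 11.92 and 11.84 on the starved arrays, and fell by 0.65 (SE 0.18, adjusted p = 0.04 from limma). SDHA read 12.08 and 11.79 against 11.57 and 11.49. Its groups did not overlap, and its difference of -0.41 (SE 0.18, adjusted p = 0.169 from limma) did not pass. SDHD read 13.19 and 13.19 against 13.30 and 13.34, with both starved arrays the higher and a difference of 0.13 (SE 0.20, adjusted p = 0.709 from limma).

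In complex III the core proteins and cytochrome c1 fell. CYC1 read 14.56 and 14.46 in control and 13.61 and 13.04 in starved PC3 cells, and fell by 1.19 (SE 0.23, adjusted p = 0.00881 from limma). UQCRC2 read 14.95 and 14.82 against 14.01 and 13.96, and fell by 0.90 (adjusted p = 0.00949 from limma). UQCRC1 read 13.73 and 13.69 against 13.13 and 13.05, and fell by 0.62 (adjusted p = 0.0452 from limma). In all 3 the spread within a group was below the gap between the groups. UQCR10 read 12.15 and 11.91 against 11.53 and 11.07 and fell by 0.74, close to the threshold (adjusted p = 0.0495 from limma). UQCRQ stood just outside it with a difference of -0.60 (adjusted p = 0.051 from limma), and UQCRB, UQCRH and UQCR11 had differences of -0.01, -0.05 and -0.15 with overlapping groups.

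In complex IV, COX5A and COX4I1, which join early in assembly, fell together with NDUFA4. COX5A read 14.41 and 14.14 in control and 13.18 and 12.92 in starved PC3 cells, and fell by 1.22 (SE 0.19, adjusted p = 0.00382 from limma). COX4I1 read 12.41 and 11.98 against 11.51 and 11.27, and fell by 0.80 (SE 0.21, adjusted p = 0.0298 from limma). NDUFA4 read 14.93 and 14.77 against 14.07 and 14.11, and fell by 0.76 (adjusted p = 0.0305 from limma). COX8A, called in CWR22Rv1 cells, was just outside the threshold in PC3 cells. It read 15.60 and 15.50 against 15.11 and 14.74, a difference of -0.62 (adjusted p = 0.0563 from limma). COX7C had -0.54 (adjusted p = 0.0905 from limma).

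The 3 subunits with the largest gaps between the CWR22Rv1 experiments had overlapping groups in PC3 cells. COX7A2 read 11.63 and 11.54 against 11.68 and 11.56. COX7B read 15.40 and 15.13 against 15.15 and 15.20, and COX6C read 15.25 and 15.21 against 15.21 and 15.14. COX5B, COX6A1 and COX6B1 had differences of -0.22, 0.07 and -0.33, and none passed.

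In complex V, 3 of 4 subunits of the head and central stalk fell in PC3 cells. ATP5F1D read 10.56 and 10.48 in control and 9.01 and 8.01 in starved cells, and fell by 2.01 (SE 0.30, adjusted p = 0.0033 from limma), again the largest measured fall of the 36. Its signal on starved array 2 was below the 95th percentile of the background probe sets there, and the gene was also called without that array. ATP5F1A read 12.80 and 12.37 against 11.33 and 11.24, and fell by 1.30 (adjusted p = 0.00371 from limma). ATP5F1C fell by 1.06 (adjusted p = 0.00957 from limma), and ATP5F1B, at -0.44, did not pass. The starved arrays of ATP5F1D differed by a full log2 unit from each other, the widest pair among these genes, while both lay well below the controls.

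Of the c ring genes, ATP5MC3 read 12.86 and 12.86 in control and 11.98 and 11.88 in starved PC3 cells, and fell by 0.93 (adjusted p = 0.0123 from limma). ATP5MC1 read 16.08 and 16.04 against 15.52 and 15.34, and fell by 0.63 (adjusted p = 0.0398 from limma). ATP5MC2 had a difference of -0.12 with overlapping groups, so the same 2 of the 3 genes passed in both lines. Of the small membrane subunits, ATP5ME read 11.25 and 11.32 against 9.92 and 9.69 and fell by 1.48 (SE 0.21, adjusted p = 0.0026 from limma). ATP5MF read 15.12 and 14.83 against 13.99 and 13.77 and fell by 1.09 (adjusted p = 0.00611 from limma). ATP5MG had -0.30 and did not pass.

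None of the 4 peripheral stalk subunits passed in PC3 cells. ATP5PD read 14.54 and 14.49 against 14.14 and 13.99, a difference of -0.45 (adjusted p = 0.104 from limma). ATP5PF, ATP5PO and ATP5PB had -0.31, -0.39 and -0.06, and among these 4 only ATP5PB had overlapping groups.

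Of the subunits called in each line, 6 were called in both: UQCR10, COX5A, ATP5F1A, ATP5F1D, ATP5MC1 and ATP5MC3. They make up 75% of the 8 calls in CWR22Rv1 and 40% of the 15 in PC3 cells, and over all genes the shared lower calls made up 47.1% and 17.6%. Both tests draw on the same estimate of the spread of a gene. The time course at 48 h, the DMKG experiment and PC3 cells share no array, and all 3 differences were negative for 23 of the 36 subunits, against 16.1% of all genes. By complex this held for 2 of 3, 5 of 8, 4 of 11 and 12 of 14 subunits of complexes II, III, IV and V. The share of all genes is lowered by ties, which do not count as negative. In the DMKG experiment +R and -R were identical for 21.6% of all genes and for 1 subunit. As a description across genes, which are not independent replicates, the differences of the 36 subunits correlated between the time course and the DMKG experiment at a Pearson r of 0.689 (0.49 over all genes), between the time course and PC3 cells at 0.66 (0.391) and between the DMKG experiment and PC3 cells at 0.50 (0.379).

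The test of the difference itself, the PC3 effect minus the CWR22Rv1 effect at 48 h, called 0 of the 36 subunits, against 2.43% of all genes lower and 1.97% higher. At an unadjusted p under 0.05, 5 subunits had the lower value in PC3 cells and none had the lower value in CWR22Rv1 cells, against 10.1% and 9.58% of all genes. The largest of these differences was that of CYC1, -0.95 (SE 0.32, adjusted p = 0.147 from limma), as the gene differed by -0.24 in CWR22Rv1 and -1.19 in PC3 cells. ATP5ME had -0.81, COX4I1 -0.79, UQCRQ -0.67 and ATP5MF -0.67. UQCR11 and UQCR10 had the largest values of opposite sign, 0.56 and 0.52. A call in 1 line and none in the other therefore does not show a different response, COX4I1 and SDHC included. With the trend and robust variant of limma CYC1 passed.

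**Figure D4:**
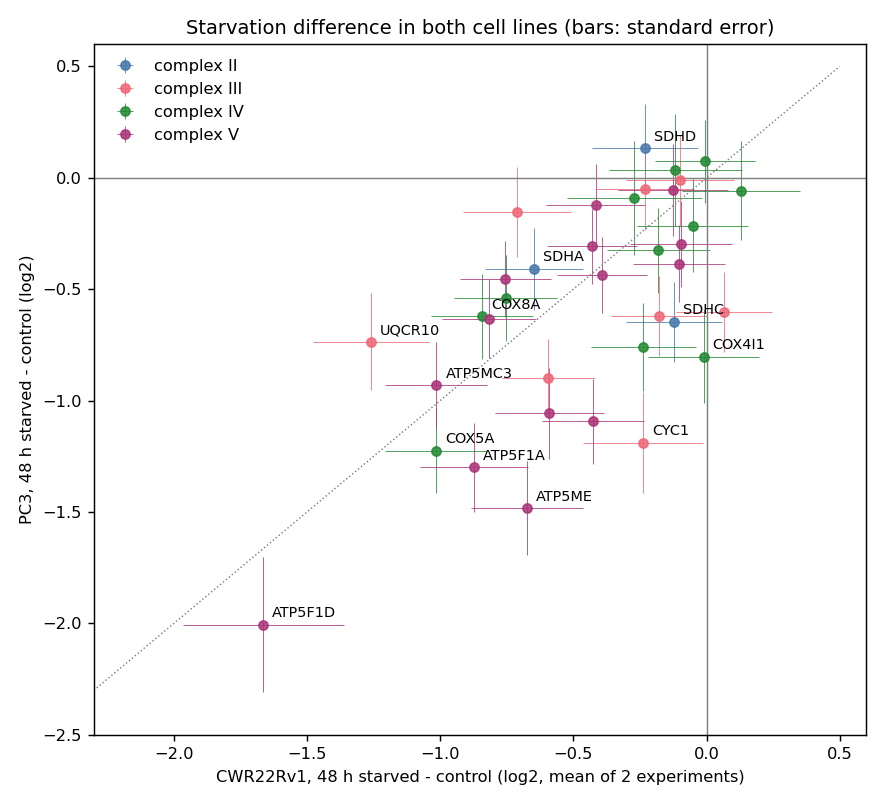
Log2 difference at 48 h of starvation in CWR22Rv1 cells (horizontal axis, mean of 2 experiments) against that in PC3 cells (vertical axis, mean of 2 arrays minus mean of 2 arrays) for the 36 subunits, coloured by complex, with standard errors from limma as bars and a dotted line of equal values. Most points lie in the lower left, ATP5F1D is lowest in both lines, and CYC1 and COX4I1 lie far below the line.

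With DMKG added to arginine-free medium 0 of the 36 subunits were called, and 0 of the 17687 genes (0% lower, 0% higher). At an unadjusted p under 0.05 only COX7A2 was lower and no subunit was higher, against 1.11% and 0.922% of all genes. The plain difference between the array with DMKG and the -R array had a median of 0.02 for the 36 subunits and 0.00 for all genes, and of -0.07, 0.02, 0.00 and 0.09 for complexes II, III, IV and V. It was positive for 20 subunits, negative for 14 and 0 for UQCRC1 and COX4I1. Over all 17687 genes it was positive for 6382, negative for 6655 and 0 for 4650. In this comparison 0 subunits passed a 2-fold difference (0.124% of all genes lower, 0.141% higher). This is 1 array against 1, whose spread is borrowed from the other groups.

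ATP5F1D had the largest positive value, 0.67, where -R lay -1.56 from +R. SDHD had 0.34 and ATP5MC3 had 0.33, against -R differences of -0.54 and -1.28. In these 3 the array with DMKG lay between the -R and +R arrays. COX7A2 had the lowest value, -0.51, followed by COX8A with -0.36 and COX7B with -0.22, and in these 3 the array with DMKG lay below the -R array, which itself lay -0.64, -0.81 and -0.79 from +R. In the model, which uses a common 48 h effect and so takes in part of the gap between experiments, the DMKG effect was 0.72 for ATP5F1D (SE 0.40, unadjusted p = 0.107 from limma) and -0.77 for COX7A2 (SE 0.33, unadjusted p = 0.0467 from limma). Both effects share the -R array with the starvation differences.

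Of the other members called at 48 h in CWR22Rv1 cells, DMKG differences were as follows. UQCR10 stood at -0.14, COX5A at 0.16, ATP5F1A at -0.01, ATP5PD at 0.09 and ATP5MC1 at -0.06. SDHA, at -0.07, and ATP5MF, at 0.00, also stayed near their -R value.

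**Figure D5:**
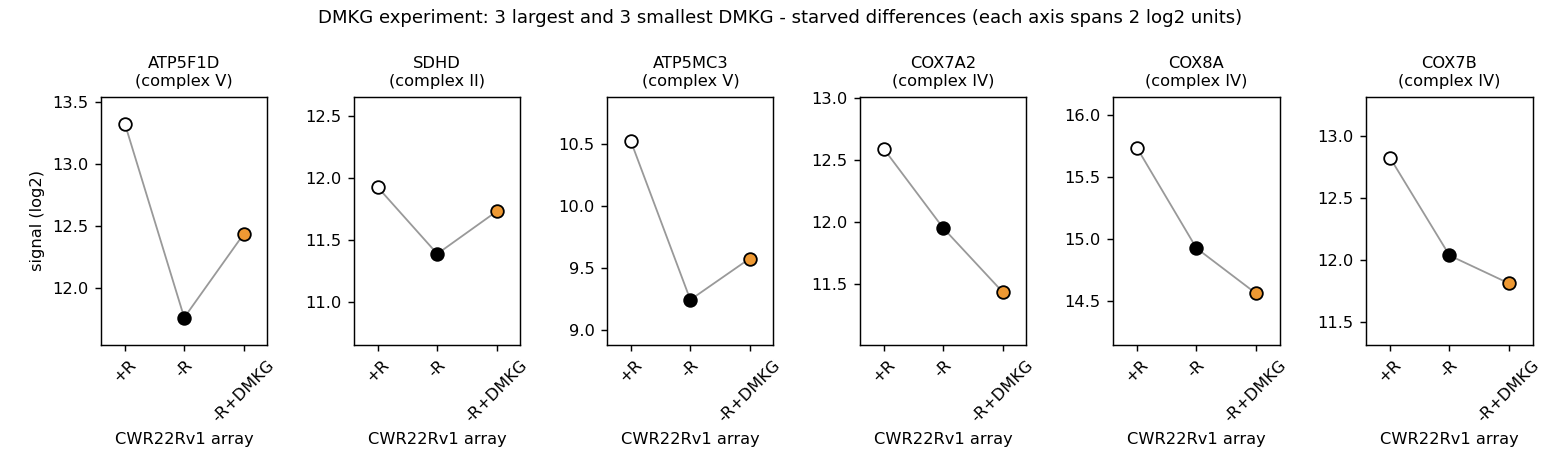
Log2 signal (vertical axis, 2 log2 units in each panel) in the DMKG experiment on the +R (white), -R (black) and -R with DMKG (orange) array for the 3 subunits with the largest and the 3 with the smallest DMKG minus -R difference. The first 3 panels turn up after -R, by 0.67 for ATP5F1D, and the last 3 go further down, by 0.51 for COX7A2, with 1 array a condition.

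Genes that build and serve these complexes were examined as wider lists. Of 13 tissue isoforms and accessory subunits 0 were called in CWR22Rv1 cells and 1 fell in PC3 cells, COX7B2 (-0.72), 7.69% of the list beside 10% of all genes. Of 41 assembly factors of complexes II to V, 4 fell and none rose in CWR22Rv1 cells, and 5 fell and 2 rose in PC3 cells. These shares are 9.76% beside 3.74% of all genes for the falls in CWR22Rv1 cells, and 12.2% and 4.88% beside 10% and 9.59% in PC3 cells. COX18, which inserts a mitochondrially encoded subunit of complex IV into the membrane, fell by 1.56 in CWR22Rv1 cells, and COA3, which acts early in complex IV assembly, fell by 1.10. COX18 also fell by 0.88 in PC3 cells (adjusted p = 0.0187 from limma), while COA3 had -0.09 there and did not pass. In PC3 cells CMC2 fell by 1.35 and SDHAF3 by 0.99, while COX19, which takes part in copper delivery to complex IV, rose by 1.16. CMC2 also fell by 0.91 in CWR22Rv1 cells, close to the threshold (adjusted p = 0.0479 from limma).

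Of 16 genes for electron carriers and ubiquinone synthesis, 1 fell in CWR22Rv1 cells, PDSS1, which makes the isoprenoid tail of ubiquinone (-1.51), and 7 fell in PC3 cells, among them COQ3 (-1.28), PDSS1 (-1.25) and COQ9 (-0.95), or 6.25% and 43.8% of the list beside 3.74% and 10% of all genes. Of 15 genes listed with the transcription factors and coactivators of such genes, TFB1M, TWNK and POLG among them, 0 were called in CWR22Rv1 cells. In PC3 cells 2 fell and 2 rose, 13.3% each way beside 10% and 9.59% of all genes. NRF1 itself had 0.02 in CWR22Rv1 cells and fell by 0.82 in PC3 cells, where TFB1M fell by 0.72 and MYC rose by 1.70. MYC was the only gene of the list that passed the test of the difference between the lines (adjusted p = 0.00824 from limma). In complex I, 5 of 32 subunits fell in CWR22Rv1 and 11 in PC3 cells and none rose, or 15.6% and 34.4% beside 3.74% and 10% of all genes, with medians of -0.20 and -0.40, beside 8 and 15 of 36 and medians of -0.33 and -0.50 in complexes II to V.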

How the data were processed

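The authors deposited log2 signals per probe set, which came from the Transcriptome Analysis Console. The sources used here do not give its version or how background and arrays were adjusted. Of 24351 probe sets, 17709 carry a single gene symbol, and where several share a symbol (20 genes) the probe set with the highest mean was kept, so that 17687 genes were tested. The number of arrays limits the precision.

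Groups were taken from the labels. A single linear model was fitted over 10 arrays (limma 3.58.1, R 4.3.3). It had intercepts for 3 sets (time course, DMKG experiment, PC3) and effects of 24 h, of 48 h in CWR22Rv1 cells (common to both experiments), of DMKG and of starvation in PC3 cells. The residual degrees of freedom were 3 and the prior added 5.10. Those 3 come from the PC3 replicates and, to a lesser part, from the disagreement of both CWR22Rv1 experiments at 48 h. Where a condition has 1 array, the array is assumed to vary like the other groups. Levels were not compared between probe sets, and between the 3 sets of arrays only those of cell type and stress markers are set side by side, with no test. Medians, shares of negative values and correlations are descriptions. Plots used matplotlib 3.10.9 (Python 3.11.15).

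The members and the wider lists were chosen with earlier results of these data known. Values on every array are given for the members the study measured by RT-qPCR, those called in CWR22Rv1 cells, the 3 of each complex with the smallest p in PC3 cells, the 3 largest and 3 smallest DMKG differences, and the 3 largest gaps between both CWR22Rv1 experiments. Of the wider lists, genes named are among the 3 called genes with the smallest p in a line. Alternatives were other scalings, a filter on low values, each line alone, the trend and robust variant, the mean of probe sets, separate 48 h effects, no term for the experiment, the PC3 replicate block, the methods' t-test, and each array left out in turn.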

Additional observations from a re-analysis of the deposited data

How the results depend on the processing

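The 8 lower calls in CWR22Rv1 cells became 16 with the trend and robust variant, 3 with the methods' t-test without adjustment and 0 with Benjamini-Hochberg adjustment of it, and 0 without a term for the experiment or with each line on its own, while quantile normalization, centring and the mean of probe sets gave 8, the filter on low values 10 and separate 48 h effects 7. Leaving out each array in turn gave 0 to 8. The 8 came only without the 24 h or the DMKG array. Each of these has its own effect in the model, so leaving it out cannot change the 48 h calls. Every other omission gave 4 or fewer. In PC3 cells the 15 calls became 22 with the trend and robust variant, 0 with the adjusted t-test of the methods (17 without adjustment, SDHD among them as the only one higher), and 4 to 15 with an array left out. The 15 likewise came only without the 24 h or the DMKG array. Leaving out another CWR22Rv1 array gave 14, and leaving out a PC3 array gave 4 or 8. The trend and robust variant gave 1 call at 24 h and 1 for the difference between the lines, and DMKG had 0 calls under all settings run, including each array left out. With the replicate block for PC3 cells, 4 subunits passed in CWR22Rv1 and 11 in PC3 cells. Its numbers are not known to pair the arrays (correlation of same-numbered deviations -0.03), so it is no measure of a weaker effect. The difference between the lines has no value with each line on its own. Shares of all genes are not set beside the counts of this paragraph, which describe only how the calls vary with the setting.

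With each array left out in turn the median of complex II lay between -0.54 and -0.23 in CWR22Rv1 and between -0.56 and -0.26 in PC3 cells, that of complex III between -0.43 and -0.22 and between -0.69 and -0.50, that of complex IV between -0.52 and 0.03 and between -0.45 and -0.21, and that of complex V between -0.62 and -0.48 in both. The median of complex IV in CWR22Rv1 cells turned to 0.032 when the +R or -R array of the DMKG experiment was left out. Quantile normalization moved the median of complex V in PC3 cells from -0.54 to -0.67. The cause of these shifts was not tested. What limits all values is the number of arrays, since 24 h and DMKG have 1 array each.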
